A study of Homo sapiens with 23 samples.

Results

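Joint loss of AGO1 and AGO2 was set against the sum of the separate losses in HCT116 cells, a human colorectal carcinoma line. For each gene the interaction was the log2 difference between *AGO1/2* knockout and *AGO1* knockout cells minus the log2 difference between *AGO2* knockout and wild-type cells. An interaction of 0 means that the 2 single effects added up on the log2 scale. A gene was called when its interaction had an adjusted p at or under 0.05 in edgeR's quasi-likelihood test over all 22426 genes tested. By this rule 3539 of the 21893 genes tested outside the long arm of chromosome 8 departed from the sum. Genes on that arm (8q, counted from 45 Mb) are reported apart, with 170 of 514 called, and 19 genes of chromosome Y were left out.

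The series holds 23 samples, of which 12 entered the interaction, 3 each of wild-type, *AGO1* knockout, *AGO2* knockout and *AGO1/2* knockout cells. Wild-type HCT116 cells came from Horizon Discovery, and GenScript made each knockout line from them by CRISPR editing. Each genotype was 1 line, so genotype and line cannot be told apart. Total RNA was sequenced after removal of ribosomal RNA, and 3 samples of *AGO1/2/3* knockout cells are described beside the others without a test. The total estimated count per sample ran from 27709971 to 45271146 with a median of 30586355, and the 3 *AGO2* knockout libraries were the deepest, at 40419152 to 45271146.

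Argonaute (AGO) proteins carry microRNAs, short RNAs that pair with matching stretches of messenger RNA, and recruit TNRC6 proteins and deadenylases that shorten the poly(A) tail and lower translation. AGO1, AGO2, AGO3 and AGO4 bind largely the same microRNAs, and AGO2 can also cut a fully paired target. Where related proteins cover for each other, a joint loss can shift a transcript that neither single loss shifts (synergy), and a joint effect smaller than the sum is called buffering.

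The targeted genes were examined first. Levels are in CPM, counts scaled to a common total after each library total was multiplied by its TMM scaling factor. *AGO1* RNA stood at 141, 109 and 147 CPM in the wild-type samples and at 162, 158 and 161 CPM after AGO2 loss. With AGO1 lost it stood at 35.1, 33.0 and 40.3 CPM, and with both lost at 35.6, 37.7 and 36.4 CPM. The 2 lines edited at *AGO1* lay below the other 2 lines with no overlap, with changes of -1.88 (log2, adjusted p = 2.65e-06) and -1.86 (adjusted p = 1.22e-06) against wild-type cells, and the interaction was -0.25 ± 0.17 (SE, adjusted p = 0.323). *AGO2*, itself on 8q, stood at 388, 465 and 384 CPM in the wild-type samples and at 341, 374 and 358 CPM after AGO1 loss. With AGO2 lost it stood at 264, 314 and 283 CPM, and with both lost at 321, 331 and 363 CPM. The *AGO2* knockout samples were the lowest and did not overlap wild-type cells (-0.52, adjusted p = 0.0109), whereas the *AGO1/2* knockout samples overlapped *AGO1* knockout cells and did not pass the test against wild-type cells (-0.29, adjusted p = 0.106). RNA of an edited gene can persist without its protein, so these levels show RNA only. The interaction of *AGO2* was 0.44 (adjusted p = 0.0673, called under 7 of 24 other settings) and that of *AGO3* 0.36 (adjusted p = 0.158).

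Departures from the sum were counted in each direction. Outside 8q, 2130 genes had an interaction above 0 (9.73% of genes tested) and 1409 below 0 (6.44%), with a median size of 1.07 among called genes and 0.41 among all genes tested. The called genes included 1937 with an interaction of at least 2-fold. Because it combines the errors of 4 group means, the interaction had a median SE of 0.28, against 0.2 for *AGO1/2* knockout against wild-type cells. Scaling by total counts alone raised the share of called genes above 0 from 60.2% to 77.6% and the median interaction of all genes from 0.03 to 0.18. The share above 0 was 54.2% by DESeq2, 53.6% by voom, 51.9% with the first within-line component of the samples as a covariate and 51.6% after correction for GC content, so the lean above 0 depended on the setting. The 3539 calls became 2309 and 2155 without *AGO1* knockout replicate 1 or 2, 2279 and 2318 without *AGO2* knockout replicate 2 or 3, and 2144 without *AGO1/2* knockout replicate 2. Without *AGO1* knockout replicates 1 and 2 in turn, 1410 and 1352 genes were above 0. Genes below 0 then numbered 899 and 803, and were 773 and 785 without *AGO2* knockout replicate 2 or 3 and 695 without *AGO1/2* knockout replicate 2. In none of these fits did a gene called in both have the opposite sign. The fits share most of their libraries, so this is no separate support. The list counts below stand beside 9.73% of all genes tested called above 0 and 6.44% below. They are also given under other settings where these changed them most, among them DESeq2, limma voom with sample weights, calls that also needed a 2-fold interaction, and fits chosen after seeing the data, with the first within-line component of the samples as a covariate or without the 2 libraries at one end of it.

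The separate losses and the joint loss changed different numbers of genes against wild-type cells. Loss of AGO1 alone gave 569 genes higher (2.60%) and 978 lower (4.47%), loss of AGO2 alone 1032 higher (4.71%) and 2015 lower (9.20%), and joint loss 1440 higher (6.58%) and 1599 lower (7.30%). Against *AGO1* knockout cells, *AGO1/2* knockout cells had 2046 genes higher (9.35%) and 1600 lower (7.31%), called AGO2 loss without AGO1 below. This compares separate lines, not the same cells before and after AGO2 loss. All of these contrasts share samples with the interaction and with each other. The AGO1 counts fell to 316 higher without wild-type replicate 1, to 374 higher and 445 lower without *AGO1* knockout replicate 1, and to 255 and 411 without *AGO1* knockout replicate 2. For AGO2 alone they fell to 528 higher without wild-type replicate 1, 304 higher and 1110 lower without wild-type replicate 2, 191 and 736 without *AGO2* knockout replicate 2, 197 and 787 without *AGO2* knockout replicate 3, and 657 higher without *AGO1/2* knockout replicate 2. Joint loss gave 930 higher and 948 lower without *AGO1/2* knockout replicate 2. For *AGO1/2* against *AGO1* knockout cells the counts were 1326 higher and 1003 lower without *AGO1* knockout replicate 2. Without *AGO1/2* knockout replicate 2 that comparison had 924 lower.

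Called genes were sorted by pattern. Among the 3539, 967 (27.3%) lay further from wild-type cells than the sum, 537 above and 430 below, and 2572 did not. Of all 21893 genes tested 7004 lay further (32%), and since the interaction holds the samples of the sum with the opposite sign, nothing is read from this split. The largest group was 1192 genes that were called lower in a single knockout, had an interaction above 0 and lay higher in *AGO1/2* knockout cells than in the lowest such knockout (falls not kept in full), with a median interaction of 1.42 and median changes of -0.69 after AGO1 loss, -0.86 after AGO2 loss and -0.09 after joint loss. A further 556 genes were rises not kept in full by the mirrored rule, with medians of 0.38, 0.53 and -0.05 in the same order. Single knockout values that define these groups also enter the interaction with the opposite sign. The sizes and medians of the groups therefore describe the sorting, and nothing more is read from them. Genes called in *AGO1/2* knockout cells alone numbered 433 rises (median joint effect 0.83) and 309 falls (-0.75), and 1049 genes (29.6%) fitted none of these patterns. Over all genes tested the medians were 0.0, -0.04 and -0.01.

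**Figure D1:**
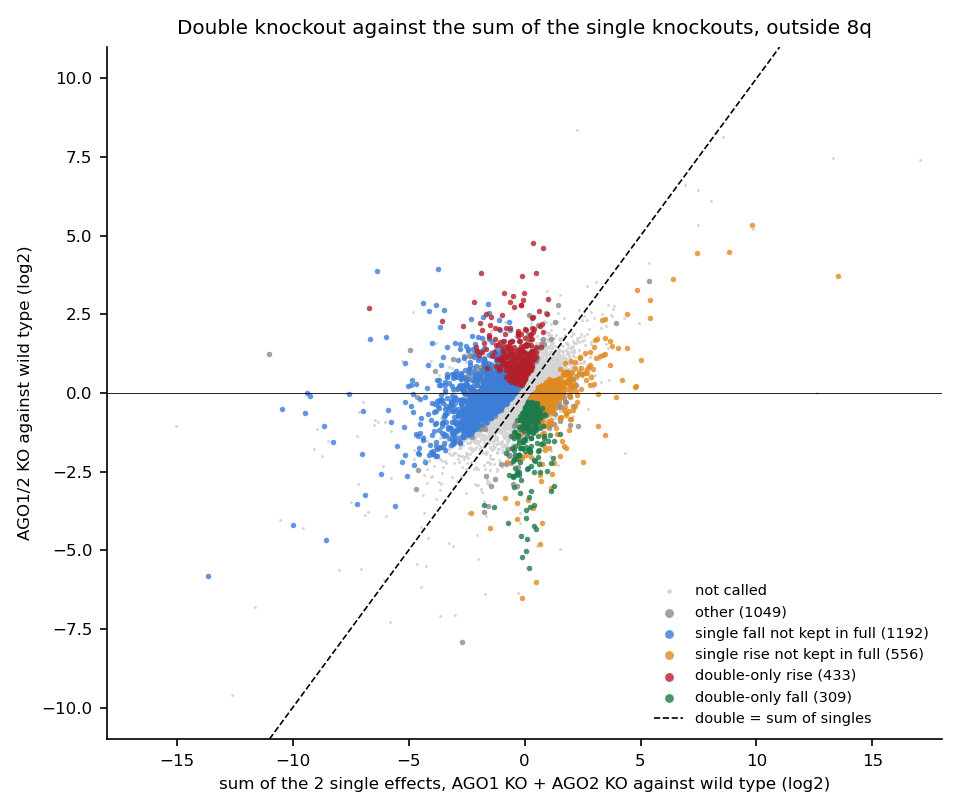
Joint effect (*AGO1/2* knockout against wild-type cells, y axis) against the sum of the 2 single effects (x axis), both in log2, for the genes tested outside 8q, with called genes coloured by pattern. Points on the diagonal have an interaction of 0, and the 1192 genes whose single fall was not kept in full spread to the left of it near a joint effect of 0.

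The line that stood apart was not always the *AGO1/2* knockout. Removing a line in turn and asking when the remaining 3 lay closest together, *AGO1/2* knockout cells stood apart for 1487 of the called genes (42.0%, against 26.2% of genes tested), *AGO2* knockout cells for 934 (26.4% against 32.8%), *AGO1* knockout cells for 609 (17.2% against 21.4%) and wild-type cells for 509 (14.4% against 19.6%). The group means that give this sorting also make up the interaction by which genes were called. These shares therefore describe the called genes, and nothing more is read from them. A change shared by all 3 knockout lines yields an interaction of the opposite sign. *PAN2*, the catalytic subunit of a deadenylase, was at 44.9, 65.1 and 47.3 CPM in wild-type cells. It was at 17.5, 17.4 and 25.1 CPM after AGO1 loss, 26.9, 20.7 and 24.3 after AGO2 loss and 25.1, 24.4 and 25.1 after joint loss. All 9 knockout samples lay below all wild-type samples, and the interaction was 1.44 ± 0.24 (adjusted p = 0.00204). *RNU12*, the RNA of the minor spliceosome's U12 particle, went the other way, with 0.834, 1.87 and 1.43 CPM in wild-type cells, 44.2, 64.0 and 75.3 in *AGO1*, 33.4, 22.9 and 26.5 in *AGO2* and 60.2, 56.6 and 51.0 in *AGO1/2* knockout cells. Its knockout samples were all far above wild-type cells (interaction -4.45, adjusted p = 9.43e-06), although reads of a short structural RNA with related copies are assigned with uncertainty.

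Called genes differed in base content and kind. Sorted by GC content into 5 groups of 2529 protein-coding genes (those with a mean of at least 1 CPM), the median interaction ran from -0.17 in the lowest group through -0.13, -0.04 and 0.11 to 0.27 in the highest, and the share called above 0 from 4.39% to 25.1%. The share called below 0 ran from 14.1% to 2.89%. Genes whose single fall was not kept in full had a median GC of 56.7%, those whose single rise was not kept in full 43.2%, and all genes tested 47.6%. After a correction for GC content in each sample these groups had medians of 0.01, -0.02, -0.04, -0.07 and -0.06, and 1759 genes were called above 0 and 1649 below (51.6% above), with 2621 called genes shared by both fits. Levels of the sorted protein-coding genes, relative to each gene's mean over the 12 samples, were rank-correlated with GC content. The values were 0.18, 0.08 and 0.3 in wild-type and 0.2, 0.11 and 0.02 in *AGO1/2* knockout samples. They were -0.18, -0.21 and 0.04 in *AGO1* and -0.16, -0.2 and -0.2 in *AGO2* knockout samples. The interaction adds the levels of the former lines and subtracts those of the single knockouts. With the correction 829 single falls and 741 single rises were not kept in full. The part of GC content in the interaction was not tested beyond this. Protein-coding genes gave 1738 calls above 0 and 1148 below among 14382 tested (20.1%), long noncoding RNAs 231 and 139 among 4516 (8.19%), pseudogenes 100 and 31 among 1557 (8.41%), and short structural RNAs 17 and 69 among 712 (12.1%).

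The largest rises with joint loss alone came in genes of several kinds. *FAT2*, an atypical cadherin, was at 0.513, 0.258 and 0.273 CPM in wild-type cells, 0.318, 0.0376 and 0.272 in *AGO1*, 0.248, 0.0232 and 0.177 in *AGO2* and 4.49, 5.33 and 4.91 in *AGO1/2* knockout cells. The *AGO1/2* knockout samples were all above every sample of the other 3 lines, with an interaction of 5.68 ± 0.76 (adjusted p = 0.000516). Single knockout libraries held few counts of *FAT2*, so the size of its interaction is uncertain. *EFNA5*, a membrane-bound ephrin ligand, was at 1.38, 0.387 and 1.28 CPM in wild-type cells, 0.635, 0.601 and 0.783 in *AGO1*, 0.947, 1.07 and 1.22 in *AGO2* and 10.2, 9.11 and 6.93 in *AGO1/2* knockout cells. Again only the joint knockout stood apart, with single effects of -0.59 and 0.08, a joint effect of 3.1 and an interaction of 3.61 ± 0.48 (adjusted p = 0.000466). *COL13A1*, a transmembrane collagen, was at 8.69, 9.55 and 17.9 CPM in wild-type cells, 7.65, 8.15 and 11.6 in *AGO1*, 9.38, 11.8 and 9.63 in *AGO2* and 67.6, 104 and 96.1 in *AGO1/2* knockout cells. No *AGO1/2* knockout sample overlapped the others (interaction 3.52 ± 0.38, adjusted p = 9.87e-05). *CLIC3*, of the chloride intracellular channel family, was at 0.93, 0.839 and 2.34 CPM in wild-type cells, 0.826, 0.526 and 1.19 in *AGO1*, 1.06, 0.348 and 0.684 in *AGO2* and 5.39, 10.7 and 7.55 in *AGO1/2* knockout cells, again with the last line above all others (interaction 4.17, adjusted p = 0.00133). *TCN1*, a vitamin B12-binding protein, had an interaction of 3.83 (adjusted p = 0.00228). *HBA2* had 4.05, a value that lost its call without wild-type replicate 1 (3.78) or *AGO1* knockout replicate 1 (3.43) and is uncertain because *HBA1* is nearly identical. The 433 rises became 256 without *AGO1/2* knockout replicate 2.

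Of the falls with joint loss alone, the 6 with the largest interactions (mean of at least 1 CPM) were at 1.12 CPM or less in every *AGO1/2* knockout sample. *RHOBTB1* was at 2.79, 2.52 and 3.25 CPM in wild-type cells, 3.43, 3.42 and 3.37 in *AGO1*, 3.25, 2.16 and 2.81 in *AGO2* and 0.128, 0.0344 and 0.0 in *AGO1/2* knockout cells. Both single knockouts overlapped or lay close to wild-type cells while the joint knockout was almost without counts, giving an interaction of -5.75 ± 0.49 (adjusted p = 1.83e-05). *ANK3*, which encodes ankyrin-G, a link between membrane proteins and the spectrin skeleton, was at 28.0, 21.1 and 24.5 CPM in wild-type cells, 25.6, 29.9 and 30.2 in *AGO1*, 28.8, 18.3 and 21.8 in *AGO2* and 1.12, 1.07 and 0.77 in *AGO1/2* knockout cells. The first 3 lines overlapped and the joint knockout lay far below (interaction -4.75 ± 0.27, adjusted p = 7.29e-07). *RHOBTB1* and *ANK3* lie near each other on chromosome 10 with *CDK1* between them, and the interaction of *CDK1* was -0.6 and not called. *COBLL1*, an actin-binding protein, was at 11.3, 10.8 and 8.5 CPM in wild-type cells, 14.1, 14.3 and 10.9 in *AGO1*, 10.5, 11.8 and 11.5 in *AGO2* and 0.642, 0.31 and 0.55 in *AGO1/2* knockout cells. Its neighbour at 32.1 kb, *GRB14*, an adaptor of the insulin receptor, was at 6.67, 4.62 and 5.53 CPM in wild-type cells, 5.15, 6.12 and 6.3 in *AGO1*, 5.16, 4.78 and 5.02 in *AGO2* and 0.257, 0.0344 and 0.147 in *AGO1/2* knockout cells. Both genes were low in the joint knockout alone, with interactions of -4.84 (adjusted p = 7.67e-07) and -5.1 (adjusted p = 8.25e-06). *HMCN1*, an extracellular matrix protein, and *CNTN1*, a neural adhesion molecule, had interactions of -5.11 and -4.4. The 309 falls became 177 without *AGO1/2* knockout replicate 2.

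**Figure D2:**
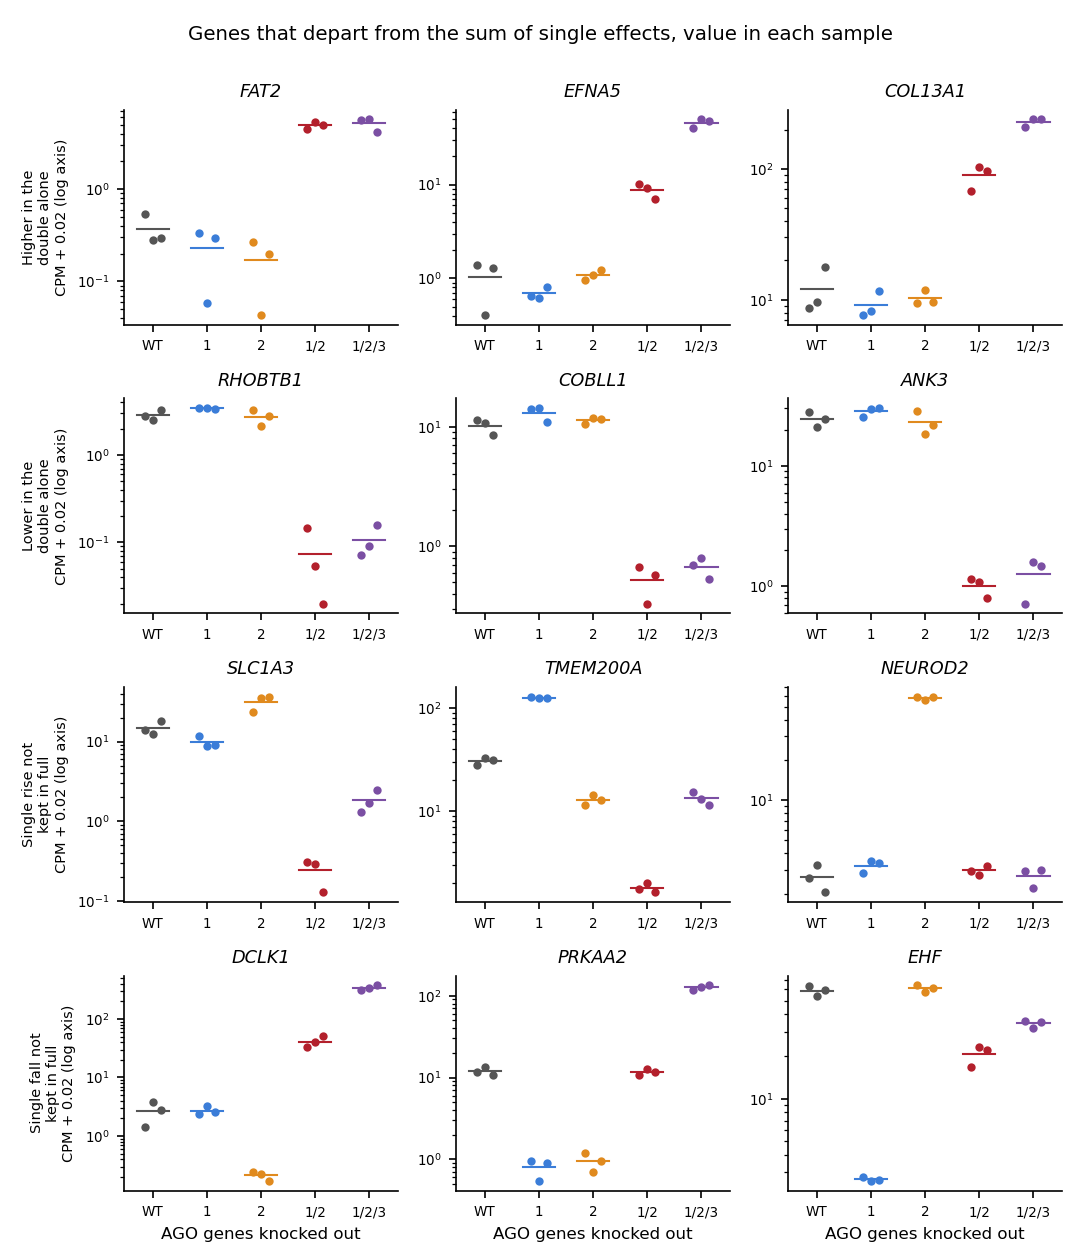
Normalized counts (CPM, with 0.02 added for the log axis) of 12 genes in every sample of the wild-type line and of the lines lacking AGO1 (1), AGO2 (2), both (1/2) or these and AGO3 (1/2/3), with dots for samples and lines for group means. *RHOBTB1*, *COBLL1* and *ANK3* fell in the lines lacking both AGO1 and AGO2, whereas *NEUROD2* was high in *AGO2* knockout cells alone.

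Rises in a single knockout that joint loss did not keep in full numbered 556, of which 343 had risen after AGO2 loss alone, 147 after AGO1 loss alone and 66 after each. In *AGO1/2* knockout cells 455 of them were not called against wild-type cells, 34 were still higher and 67 were lower. *NEUROD2*, a neuronal transcription factor, was at 2.6, 3.23 and 2.03 CPM in wild-type cells, 2.83, 3.46 and 3.34 in *AGO1*, 59.1, 56.1 and 59.2 in *AGO2* and 2.95, 2.72 and 3.22 in *AGO1/2* knockout cells. *AGO2* knockout cells stood far above the 3 other lines, which overlapped, with an interaction of -4.58 ± 0.22 (adjusted p = 1.45e-07). *SLC1A3*, a glutamate transporter, was at 14.1, 12.6 and 18.1 CPM in wild-type cells, 11.9, 8.9 and 9.16 in *AGO1*, 23.6, 35.2 and 36.5 in *AGO2* and 0.289, 0.275 and 0.11 in *AGO1/2* knockout cells. It rose with AGO2 loss and fell to near 0 with joint loss (interaction -6.52 ± 0.38, adjusted p = 7.54e-07). *TMEM200A*, a membrane protein gene, was at 28.4, 32.9 and 31.7 CPM in wild-type cells, 130, 127 and 125 in *AGO1*, 11.4, 14.4 and 12.9 in *AGO2* and 1.73, 1.99 and 1.61 in *AGO1/2* knockout cells. The 4 lines did not overlap, the single effects of 2.03 and -1.27 had opposite signs, and the joint effect was -4.12 (interaction -4.89 ± 0.17, adjusted p = 1.46e-08). Its neighbour *SAMD3*, 0.6 kb away, had an interaction of -3.76. *AGO2* knockout cells had 11.5, 19.6 and 78.4 CPM of *MT-RNR1*, the mitochondrial 12S ribosomal RNA, whose removal during library preparation was not tested. Its interaction was -4.61 (adjusted p = 0.0307). That call was lost without wild-type replicate 1 (-4.44) or 2 (-4.53), *AGO1* knockout replicate 2 (-4.21) or 3 (-4.57), or *AGO1/2* knockout replicate 1 (-4.17) or 2 (-4.12). The 556 genes became 299 and 261 without wild-type replicate 1 or 2, 356, 271 and 873 without *AGO1* knockout replicate 1, 2 or 3, 207 and 193 without *AGO2* knockout replicate 2 or 3, and 264 and 362 without *AGO1/2* knockout replicate 2 or 3.

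Falls in a single knockout that joint loss did not keep in full numbered 1192, of which 547 had fallen after AGO2 loss alone, 286 after AGO1 loss alone and 359 after each. In *AGO1/2* knockout cells 861 of them were not called against wild-type cells, 200 were still lower and 131 were higher. *PRKAA2*, a catalytic subunit of the energy sensor AMPK, was at 11.5, 13.4 and 10.7 CPM in wild-type cells, 0.921, 0.526 and 0.885 in *AGO1*, 1.17, 0.672 and 0.937 in *AGO2* and 10.7, 12.7 and 11.8 in *AGO1/2* knockout cells. Each single loss lowered it to about the same level, and *AGO1/2* knockout cells overlapped wild-type cells, with effects of -3.92, -3.67 and -0.02 and an interaction of 7.57 ± 0.31 (adjusted p = 4.63e-08). *DCLK1*, a microtubule-associated kinase, was at 1.38, 3.87 and 2.76 CPM in wild-type cells, 2.35, 3.19 and 2.55 in *AGO1*, 0.225, 0.209 and 0.152 in *AGO2* and 32.6, 40.1 and 50.2 in *AGO1/2* knockout cells. It was lowest with AGO2 loss and highest with joint loss, with no overlap of either with wild-type cells (interaction 7.66 ± 0.48, adjusted p = 1.30e-06). *TM4SF18*, a tetraspan membrane protein gene, was at 1.12, 0.323 and 1.7 CPM in wild-type cells, 0.349, 0.188 and 0.204 in *AGO1*, 0.18, 0.232 and 0.203 in *AGO2* and 6.64, 9.9 and 6.49 in *AGO1/2* knockout cells. The joint knockout lay above the other lines (interaction 7.26 ± 0.68, adjusted p = 3.40e-05), and the gene *WWTR1* 182.8 kb away had an interaction of 1.57. *MYOC*, which encodes myocilin, had no count in the 3 *AGO2* knockout libraries, beside 2.63, 3.36 and 2.73 CPM in wild-type cells, 2.95, 3.27 and 3.78 CPM after AGO1 loss and 1.67, 2.92 and 4.25 CPM after joint loss. With 3 counts per *AGO2* knockout library as a floor, its interaction was at least 5.18 (log2). *PRSS33*, a serine protease gene, had an interaction of 10.25 ± 0.83 (adjusted p = 1.17e-05) that rested on 2 counts over the 3 *AGO1* knockout libraries and 4 over those of *AGO2* knockout cells against 357 in *AGO1/2* knockout cells, so that the fitted size depends on the prior count of the fit. Against *AGO1* knockout cells the ratio was 178 with a 95% counting interval of 49 to 1480. The 1192 genes became 772 and 686 without *AGO1* knockout replicate 1 or 2, and 711 and 701 without *AGO2* knockout replicate 2 or 3.

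For 307 genes outside 8q, *AGO2* knockout against wild-type cells and *AGO1/2* against *AGO1* knockout cells were called in opposite directions. Of these, 222 had an interaction above 0 and 85 below. *PRSS33*, *DCLK1*, *PRKAA2* and *TM4SF18* had the largest values among them. The count was 198 and 157 without *AGO1* knockout replicate 1 or 2, 107 and 101 without *AGO2* knockout replicate 2 or 3, and 169 without *AGO1/2* knockout replicate 2. On a linear scale 99.9% of the called genes kept the sign of the interaction and 4 did not.

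Interferon-stimulated and RNA-sensing genes, which encode antiviral effectors and the factors that switch them on, had a higher median in *AGO1/2* knockout cells. Of 29 listed genes tested, 13 were called above 0 and 0 below, with a median interaction of 1.11 (all genes tested 0.03), and the medians of the effects were -0.04 after AGO1 loss, 0.05 after AGO2 loss and 1.3 after joint loss. *IFI6*, an antiviral and antiapoptotic membrane protein, was at 6.64, 2.97 and 6.28 CPM in wild-type cells, 4.57, 5.07 and 5.51 in *AGO1*, 6.56, 4.31 and 5.6 in *AGO2* and 67.5, 61.2 and 15.6 in *AGO1/2* knockout cells. All *AGO1/2* knockout samples lay above the rest, replicate 3 the least (interaction 3.2 ± 0.63, adjusted p = 0.00507). *IFI27* was at 1.83, 1.26 and 1.58 CPM in wild-type cells, 1.4, 1.69 and 2.01 in *AGO1*, 1.44, 1.18 and 1.49 in *AGO2* and 13.9, 18.9 and 3.81 in *AGO1/2* knockout cells (interaction 3.03, adjusted p = 0.00750). *BST2*, the virus tether tetherin, was at 0.705, 1.03 and 0.729 CPM in wild-type cells, 0.413, 0.488 and 1.09 in *AGO1*, 0.789, 0.209 and 0.557 in *AGO2* and 3.85, 6.88 and 3.04 in *AGO1/2* knockout cells (interaction 3.44, adjusted p = 0.00463). For both genes the joint knockout stood above the other 3 lines without overlap. The factors *IRF9*, *IRF7* and *STAT2* were also called, with 2.63, 1.77 and 0.7. In single samples the median of the 29 genes, relative to wild-type cells in log2, was 1.61, 1.5 and 0.48 in *AGO1/2* knockout cells, so replicate 3 was apart from the other 2, and -0.17 to 0.3 in the 9 samples of the other lines. The 13 calls became 7 without *AGO1* knockout replicate 1 or 2, 7 and 8 without *AGO2* knockout replicate 2 or 3, and 8 and 7 without *AGO1/2* knockout replicate 1 or 2. The class I antigen presentation genes, which interferon also raises, had 4 of 13 called above 0 and 0 below (median 0.66), and 7 without *AGO1* knockout replicate 3 or *AGO2* knockout replicate 1. The 4 became 8 by voom or without the 2 libraries of the component, and 0 where a 2-fold interaction was also needed.

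Promoters of many interferon-stimulated genes carry a response element to which IRF9 binds together with STAT factors, and windows are shown for called genes of the list. The motif GAAA, any 2 bases and GAAA again, chosen after values were seen, was searched on both strands of RefSeq promoter windows (build GRCh38.p14, from 250 bases before to 50 after the gene start), where 996 of 27305 held it (3.65%), as did 372 of 13174 promoters of genes tested outside 8q (2.82%). Among listed interferon genes with a window, 5 of 9 called and 11 of 12 not called held it. A match describes letters only. All sites of the 5 called genes follow, 5' to 3' on the strand of the build that is named, with the motif in capitals.
BST2, chr19:17405743-17405768, minus strand: ctttctggGAAACTGAAActgaaaac
BST2, chr19:17405737-17405762, minus strand: gggaaactGAAACTGAAAacctaatt
IFI6, chr1:27672331-27672356, minus strand: agagagggGAAAATGAAActctgcag
IFI6, chr1:27672290-27672315, minus strand: agagagggGAAAATGAAActgcagag
IFI6, chr1:27672268-27672293, minus strand: agagtgcaGAAATAGAAActccgaca
IFI27, chr14:94110620-94110645, minus strand: ttttccagGAAACCGAAActgcagac
IFI27, chr14:94110633-94110658, plus strand: gtttcctgGAAAATGAAAcctatctc
IFIT1, chr10:89392499-89392524, minus strand: cgaaagggGAAAGTGAAActaaagct
IFIT1, chr10:89392512-89392537, minus strand: aacctaggGAAACCGAAAggggaaag
MX1, chr21:41420561-41420586, plus strand: gcagaaatGAAACCGAAActgaattg
The motifs of *BST2*, *IFI6* and *MX1* lie on the strand of the gene, those of *IFIT1* on the other strand, and *IFI27* has a motif on each. Some of the printed windows overlap.

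**Figure D3:**
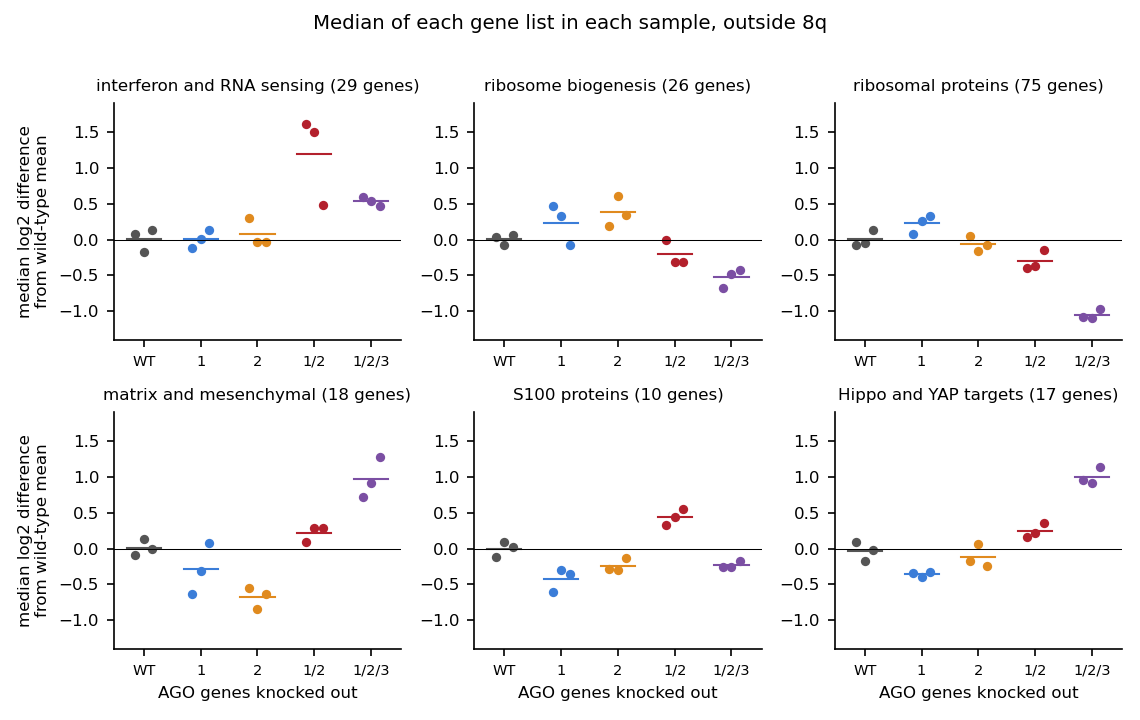
Median log2 level of 6 gene lists in each sample relative to the wild-type mean, with dots for samples and the lines labelled by the AGO genes knocked out. The interferon list was highest in *AGO1/2* knockout replicates 1 and 2 (1.61 and 1.5), and the ribosomal protein list lowest in *AGO1/2/3* knockout cells (-1.08, -1.09 and -0.97).

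Calls in the keratin, S100 and matrix lists were all above 0. Of the 6 keratins tested, which form the filaments of epithelial cells, 5 were above 0 and 0 below (median 1.12). The count above was 3 without *AGO1* knockout replicate 2 and 3 with the GC correction, though not of the same genes. *KRT18* was at 498, 558 and 491 CPM in wild-type cells, 383, 442 and 437 in *AGO1*, 349, 448 and 353 in *AGO2* and 675, 674 and 639 in *AGO1/2* knockout cells. The joint knockout was above all other samples although the samples of both single losses lay below wild-type cells (interaction 1.08 ± 0.16, adjusted p = 0.00114). Of 10 S100 genes, small calcium-binding proteins, 7 were above 0 and 0 below (median 1.16). *S100A4* was at 106, 58.3 and 112 CPM in wild-type cells, 15.1, 15.1 and 21.1 in *AGO1*, 178, 114 and 142 in *AGO2* and 136, 193 and 223 in *AGO1/2* knockout cells. It was low with AGO1 loss alone and not with joint loss (interaction 2.77 ± 0.37, adjusted p = 0.000485). *S100A10* was at 93.9, 72.8 and 129 CPM in wild-type cells, 80.1, 87.9 and 81.3 in *AGO1*, 95.5, 132 and 110 in *AGO2* and 271, 221 and 247 in *AGO1/2* knockout cells. It was high in the joint knockout alone (interaction 1.38, adjusted p = 0.00377).

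Matrix and mesenchymal genes had 9 of 18 called above 0 and 0 below (median 1.28), or 6 above with the GC correction. *SPARC*, a matrix glycoprotein, was at 1.47, 1.26 and 2.4 CPM in wild-type cells, 0.476, 1.24 and 0.885 in *AGO1*, 0.248, 0.0464 and 0.304 in *AGO2* and 3.72, 12.3 and 15.2 in *AGO1/2* knockout cells. It was lowest with AGO2 loss and highest with joint loss (interaction 6.69 ± 0.84, adjusted p = 0.000326). The *AGO2* knockout libraries held few counts of *SPARC*, so the size of its interaction is uncertain. *VIM*, the filament protein of mesenchymal cells, was at 4.65, 3.2 and 4.89 CPM in wild-type cells, 9.15, 10.4 and 5.21 in *AGO1*, 2.19, 2.34 and 2.91 in *AGO2* and 24.7, 21.5 and 25.6 in *AGO1/2* knockout cells. The joint knockout was above every other sample (interaction 2.31 ± 0.33, adjusted p = 0.000811). *TGFBI*, a secreted adhesion protein, had 3.96 (adjusted p = 0.00266). Transcription and splicing regulators of the epithelial-mesenchymal transition had 3 of 11 above 0 and 2 below (median -0.04), with *TWIST1* at 2.85 and *GRHL3* at -3.47, and with 1 above without *AGO1* knockout replicate 1 and 1 in each direction at 2-fold. Epithelial junction genes had 5 of 25 above 0 and 2 below (median 0.08). Those above 0 numbered 2 and 1 without *AGO1* knockout replicate 1 or 2, 2 and 3 without *AGO2* knockout replicate 2 or 3, and 2 without *AGO1/2* knockout replicate 2 or 3. They were 2 with the GC correction, 1 at 2-fold and 9 by voom.

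Lists of growth and differentiation signals come next. Hippo pathway genes and targets of its effectors YAP and TAZ had 8 of 17 called above 0 and 0 below (median 0.64). *CCN2*, a secreted growth factor modulator, was at 15.9, 5.87 and 5.1 CPM in wild-type cells, 1.84, 1.92 and 1.94 in *AGO1*, 1.6, 3.43 and 1.75 in *AGO2* and 8.73, 9.08 and 12.4 in *AGO1/2* knockout cells. Each single loss lowered it and the joint knockout overlapped wild-type cells (interaction 4.38 ± 0.58, adjusted p = 0.000471). *ANKRD1*, a nuclear ankyrin-repeat protein, was at 0.898, 0.613 and 0.638 CPM in wild-type cells, 0.254, 0.188 and 0.204 in *AGO1*, 0.0225, 0.0695 and 0.101 in *AGO2* and 0.802, 1.72 and 1.72 in *AGO1/2* knockout cells (interaction 6.1, adjusted p = 6.04e-05). Its joint knockout samples overlapped wild-type cells and lay above both single losses. The *AGO2* knockout libraries held few counts of *ANKRD1*, so the size of its interaction is uncertain. *WWTR1*, which encodes TAZ itself, had 1.57 (adjusted p = 0.000980). Genes of EGF receptor and ERK signalling had 9 of 24 above 0 and 0 below (median 0.59). *DUSP6*, a phosphatase that turns ERK off, was at 318, 297 and 286 CPM in wild-type cells, 230, 240 and 287 in *AGO1*, 166, 100 and 104 in *AGO2* and 195, 450 and 526 in *AGO1/2* knockout cells. Its joint knockout samples spanned the range from below wild-type cells to above them, and the interaction was 1.92 ± 0.41 (adjusted p = 0.00831).

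TGF-beta family signalling had 7 of 25 above 0 and 3 below (median 0.27), with 4 above without *AGO1* knockout replicate 1 or 2, 3 at 2-fold and 13 by voom. Those below ran from 1 to 5 over the settings, with 5 by voom. *TGFB2*, a ligand, was at 1.12, 1.23 and 0.88 CPM in wild-type cells, 0.731, 0.789 and 0.579 in *AGO1*, 0.811, 2.2 and 1.49 in *AGO2* and 6.64, 6.71 and 9.05 in *AGO1/2* knockout cells (interaction 2.93 ± 0.44, adjusted p = 0.00112). The receptor *ACVR2A* moved in the other direction, at 17.8, 18.2 and 19.9 CPM in wild-type cells, 17.8, 17.1 and 16.8 in *AGO1*, 22, 19.6 and 19.8 in *AGO2* and 5.94, 6.88 and 7.0 in *AGO1/2* knockout cells (interaction -1.52, adjusted p = 4.72e-05). For both genes the joint knockout lay outside the range of the other 3 lines. WNT pathway genes had 4 of 14 above 0 and 1 below (median 0.58), or 7 above by voom. *RNF43*, a ligase that removes WNT receptors, was at 119, 86.0 and 125 CPM in wild-type cells, 102, 114 and 114 in *AGO1*, 79.8, 72.2 and 72.9 in *AGO2* and 205, 235 and 197 in *AGO1/2* knockout cells, highest with joint loss and lowest with AGO2 loss (interaction 1.5, adjusted p = 0.000380). *NOTUM*, a secreted WNT inhibitor, had 2.06. Intestinal transcription and differentiation genes had 5 of 13 above 0 and 0 below (median 0.54), or 3 without *AGO1/2* knockout replicate 2 or by DESeq2, and 4 above and 2 below with the GC correction. *HNF4A*, a nuclear receptor of gut epithelium, was at 9.65, 8.78 and 10.6 CPM in wild-type cells, 9.47, 8.41 and 10.3 in *AGO1*, 6.76, 5.15 and 5.02 in *AGO2* and 13.1, 15.9 and 13.2 in *AGO1/2* knockout cells (interaction 1.35, adjusted p = 0.00119), lowest with AGO2 loss and highest with joint loss. *EHF*, an epithelial ETS factor of the same list, was at 63.5, 53.8 and 58.9 CPM in wild-type cells, 2.76, 2.59 and 2.62 in *AGO1*, 64.1, 57.9 and 61.8 in *AGO2* and 16.7, 23.3 and 22.1 in *AGO1/2* knockout cells. It was lowest with AGO1 loss, and *AGO1/2* knockout cells lay between that line and wild-type cells (interaction 2.9 ± 0.18, adjusted p = 1.34e-06).

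Genes of ribosome production lay below the sum. Of 26 ribosome biogenesis genes, 20 were called below 0 and 0 above, all 26 values were negative and the median was -0.84. *FBL*, the methyltransferase fibrillarin of the nucleolus, was at 184, 126 and 193 CPM in wild-type cells, 235, 226 and 200 in *AGO1*, 195, 216 and 210 in *AGO2* and 141, 108 and 134 in *AGO1/2* knockout cells. Both single knockouts lay above all wild-type samples and the joint knockout overlapped the low end of wild-type cells (interaction -1.09 ± 0.22, adjusted p = 0.00589). The 20 calls became 9 and 10 without *AGO1* knockout replicate 1 or 2, 8 and 9 without *AGO2* knockout replicate 2 or 3, and 8 and 10 without *AGO1/2* knockout replicate 2 or 3. They were 10 with total-count scaling and 6 at 2-fold. Of 75 ribosomal protein genes, 23 were below 0 and 0 above, all 75 values were negative and the median was -0.47. *RPL34*, of the large subunit, was at 309, 309 and 383 CPM in wild-type cells, 370, 421 and 437 in *AGO1*, 376, 309 and 329 in *AGO2* and 218, 214 and 266 in *AGO1/2* knockout cells, lowest with joint loss (interaction -0.83 ± 0.18, adjusted p = 0.00939). Its list gave 7 and 12 calls without wild-type replicate 1 or 2, 6 without *AGO1* knockout replicate 2, 6, 14 and 5 without *AGO2* knockout replicate 1, 2 or 3, and 8 and 3 without *AGO1/2* knockout replicate 1 or 2. Other settings gave 0 at 2-fold, 12 with total-count scaling or without the 2 libraries of the component, 45 by DESeq2, 52 with the component as a covariate and 65 by voom, so the count rests on the setting. Many ribosomal protein genes have processed pseudogenes that can share reads. Hosts of small nucleolar RNAs had 5 of 15 below 0 and 0 above (median -0.51), with 3 without *AGO1* knockout replicate 1 or 2, *AGO2* knockout replicate 1 or 3, or *AGO1/2* knockout replicate 3, and 2 without *AGO2* or *AGO1/2* knockout replicate 2. It was 1 at 2-fold and 10 by voom or with the component.

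Nuclear genes of oxidative phosphorylation had 18 of 63 called below 0 and 0 above (median -0.55), and mitochondrial messenger RNAs 2 of 13 below and 0 above (median -0.13). The 18 calls became 11 without wild-type replicate 1, 5, 5 and 29 without *AGO1* knockout replicate 1, 2 or 3, 10, 5 and 4 without *AGO2* knockout replicate 1, 2 or 3, and 9, 3 and 7 without *AGO1/2* knockout replicate 1, 2 or 3. They were 1 at 2-fold, 7 with total-count scaling, 28 by DESeq2, 44 by voom and 47 with the component, and 35 without its 2 libraries. DNA replication and nucleotide supply genes had 3 of 32 below 0 and 0 above with a median of -0.9, a share near the 6.44% of all genes tested. All 32 values were negative. At an unadjusted p under 0.05 by edgeR, 11 were below 0 and 0 above, beside 3101 below among all 21893 genes tested. Replicates differed within lines. The median of these 32 genes relative to wild-type cells was 0.49, -0.98 and 0.47 in wild-type cells, 0.74, 0.55 and -0.2 in *AGO1*, 0.83, 1.07 and 0.95 in *AGO2* and 0.58, 0.01 and 0.23 in *AGO1/2* knockout cells. Wild-type replicate 2 and *AGO1* knockout replicate 3 were the lowest, and the count was 0 without *AGO1* knockout replicate 1 or 2, *AGO2* or *AGO1/2* knockout replicate 2 or 3, and 7 without *AGO1* knockout replicate 3. It was 12 with no filter on low counts, 20 by voom, 30 with the component as a covariate and 19 without its 2 libraries, but 0 with GC correction and replicate block together. Mitosis genes had 0 of 24 called in either direction by edgeR, 0 at an unadjusted p under 0.05, 0 by DESeq2, 1, below 0, by voom and 3, below 0, with the component (median -0.21).

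**Figure D4:**
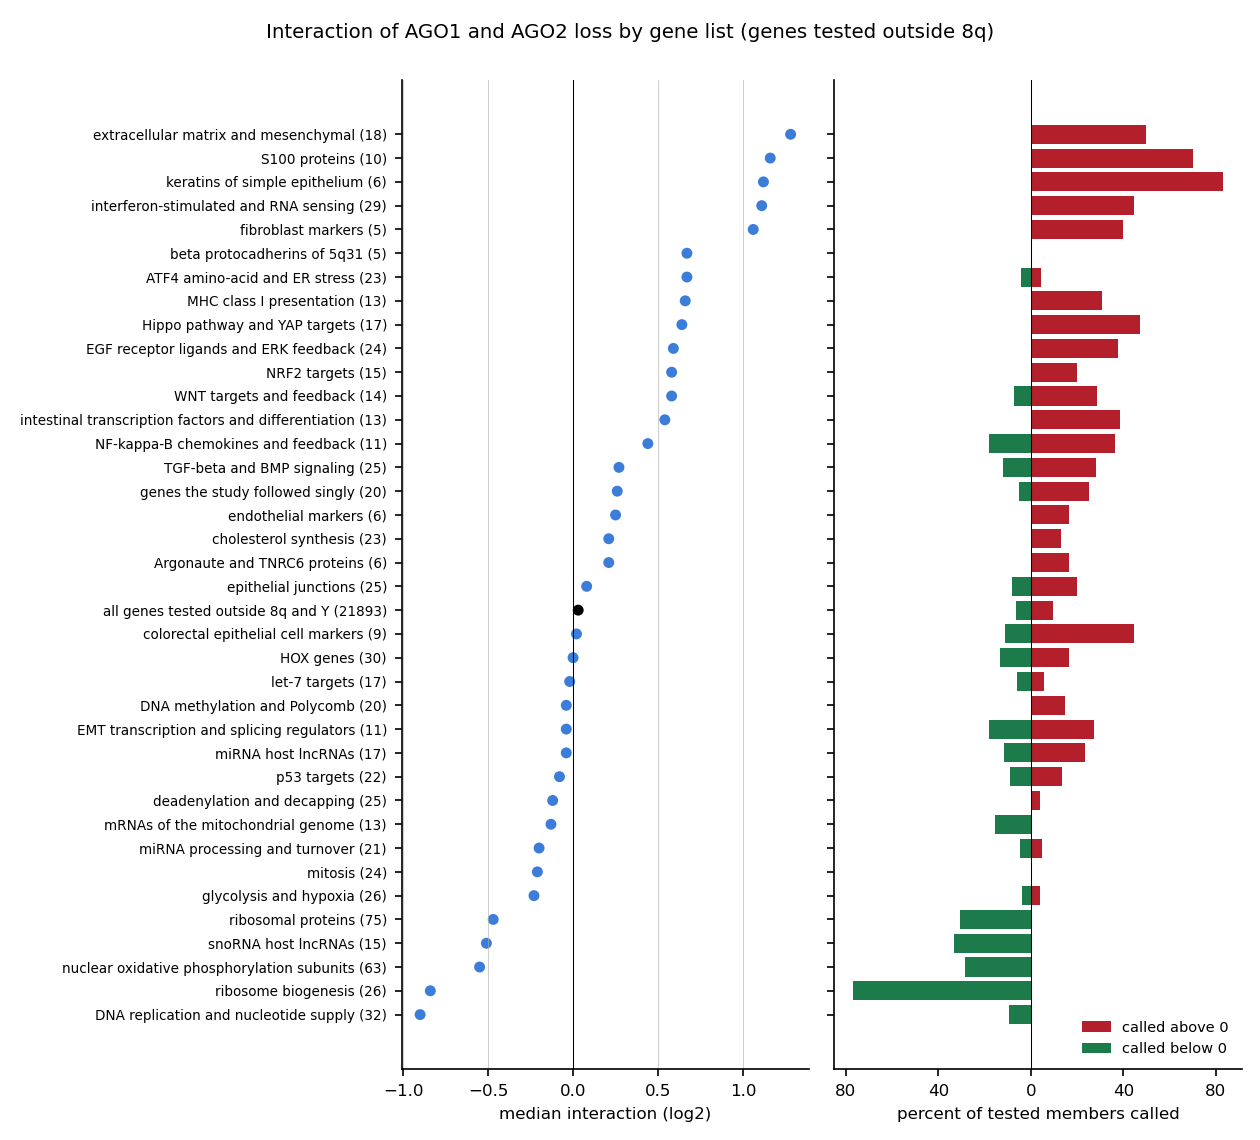
Median interaction in log2 (left) and percent of tested members called above or below 0 (right) for each gene list with at least 5 members tested outside 8q, their number in parentheses. Among the lists shown, matrix genes had the highest median (1.28) and DNA replication genes the lowest (-0.9), beside 0.03 for all genes tested (black).

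Genes of the microRNA machinery were counted next. Of 6 AGO and TNRC6 genes outside 8q, 1 was above 0 and 0 below (median 0.21). It was *AGO4*, at 22.4, 28.9 and 25.0 CPM in wild-type cells, 17.4, 17.5 and 27.2 in *AGO1*, 20.5, 10.8 and 15.2 in *AGO2* and 22, 33.5 and 33.7 in *AGO1/2* knockout cells. *AGO2* knockout samples lay below wild-type and *AGO1/2* knockout cells without overlap, and all other pairs of lines overlapped (interaction 1.23 ± 0.35, adjusted p = 0.0291), and the call was lost without *AGO1* knockout replicate 1 (1.12) or 2 (1.12), *AGO2* knockout replicate 2 (1.05) or 3 (1.25), or *AGO1/2* knockout replicate 2 (1.16) or 3 (1.13). *TNRC6A*, *TNRC6B* and *TNRC6C* had -0.05, 0.15 and 0.27 and were not called, and *TNRC6A* turned to 0.09 under total-count scaling. The microRNA processing enzyme *DICER1* had -0.49 (adjusted p = 0.0510, called under 8 of 24 other settings) and its partner *TARBP2* -0.04 (adjusted p = 0.919, 0.1 under total-count scaling). MicroRNA processing and decay genes had 1 of 21 above 0 and 1 below (median -0.2), deadenylation and decapping genes 1 of 25 above 0, *PAN2*, and 0 below (median -0.12). By voom 7 and 11 genes of these lists were below 0, and with the component 8 and 7. Targets of let-7 had 1 of 17 above 0 and 1 below (median -0.02). Long noncoding RNAs that host microRNAs had 4 of 17 above 0 and 2 below (median -0.04). *MIR17HG*, host of the miR-17-92 cluster, was at 12.8, 9.13 and 13.1 CPM in wild-type cells, 18.6, 21.6 and 18.6 in *AGO1*, 23.2, 23.0 and 18.2 in *AGO2* and 9.11, 12.4 and 11.5 in *AGO1/2* knockout cells. Both single losses raised it and joint loss did not (interaction -1.7 ± 0.23, adjusted p = 0.000578), while *MIR22HG* had 2.53 (adjusted p = 0.00622). Of the 22 genes that the study followed singly, 20 lay outside 8q, with 5 above 0 and 1 below (median 0.26). Those above were 2 without *AGO1* knockout replicate 2 and 3 without *AGO2* or *AGO1/2* knockout replicate 3, 3 with the GC correction and 2 at 2-fold. The PCR normalizers gave 1 of 2 below 0 and 0 above (median -0.61), with *SNRNP200* at -0.37 (adjusted p = 0.179) and *HPRT1* at -0.86 (adjusted p = 0.0458). The call of *HPRT1* was lost without wild-type replicate 1 (-0.82) or 2 (-0.65), *AGO1* knockout replicate 1 (-0.76) or 2 (-0.77), *AGO2* knockout replicate 1 (-0.83), 2 (-0.83) or 3 (-0.84), or *AGO1/2* knockout replicate 1 (-0.92), 2 (-0.75) or 3 (-0.86).

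Calls in further lists went in both directions or were few. Chemokine and feedback genes of NF-kB had 4 of 11 above 0 and 2 below (median 0.44). Those above numbered 2 and 1 without *AGO1* knockout replicate 1 or 2, 1 and 2 without *AGO2* knockout replicate 2 or 3, and 2 without *AGO1/2* knockout replicate 2. *ICAM1*, an adhesion receptor in that list, was at 6.16, 8.52 and 9.87 CPM in wild-type cells, 12.0, 13.9 and 16.5 in *AGO1*, 3.02, 2.13 and 2.66 in *AGO2* and 0.995, 0.791 and 0.623 in *AGO1/2* knockout cells. It was higher with AGO1 loss, lower with AGO2 loss and lowest with joint loss (interaction -2.47 ± 0.32, adjusted p = 0.000392). Cholesterol genes had 3 of 23 above 0 and 0 below (median 0.21), or 6 without wild-type replicate 2 and 8 by voom.

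HOX genes had 5 of 30 above 0 and 4 below (median 0.0). Those above were 3 without wild-type replicate 3, 2 and 3 without *AGO1* knockout replicate 1 or 2, 3 without *AGO2* knockout replicate 2 or 3, and 3 and 2 without *AGO1/2* knockout replicate 2 or 3, and those below were 1 without wild-type replicate 1, *AGO1* knockout replicate 1 or 2, any *AGO2* knockout replicate, or *AGO1/2* knockout replicate 2 or 3. They were 9 above and 9 below by voom, and 2 and 0 at 2-fold. Targets of p53 had 3 of 22 above 0 and 2 below (median -0.08), with 0 and 5 above without *AGO1* knockout replicate 2 or 3 and 1 without *AGO2* knockout replicate 2, and 8 below by voom. NRF2 targets had 3 of 15 above 0 and 0 below (median 0.58; 5 above by voom or with the component, 1 with GC correction and replicate block), DNA methylation and Polycomb genes 3 of 20 above and 0 below (-0.04; 1 above with the GC correction, 0 at 2-fold, and 4 above beside 4 below by voom and 5 below with the component), ATF4, amino acid and ER stress genes 1 of 23 above and 1 below (0.67) and glycolysis and hypoxia genes 1 of 26 above and 1 below (-0.23). Nothing is read from lists with 1 or 2 calls, whose counts with single libraries left out ran from 0 to 5 for microRNA processing genes below 0, 0 to 1 above and 0 to 2 below for let-7 targets, 0 to 4 for p53 targets below and for ATF4 and stress genes above, and 0 to 9 for glycolysis and hypoxia genes below. The beta protocadherins had 0 of 5 called by edgeR, 1 above 0 at an unadjusted p under 0.05, 0 by DESeq2 and 3 above 0 by voom (median 0.67). With total counts as the only scaling, list medians shifted upward with that of all genes, and those of the deadenylation (0.03), let-7 (0.12), microRNA host (0.1), mesenchymal transition (0.11), p53 (0.06), mitochondrial messenger (0.01) and DNA methylation (0.1) lists turned above 0, whereas the GC correction took the HOX median to -0.22.

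Genes on 8q lay below the sum as a stretch. There 13 genes had an interaction above 0 (2.53%) and 157 below 0 (30.5%), with a median of -0.41 over the 514 tested. Among 361 expressed genes (a mean of at least 1 CPM) the medians were 0.01 after AGO1 loss, 0.01 after AGO2 loss and -0.54 after joint loss, with a median interaction of -0.5, beside 0.0 for 15632 expressed genes elsewhere. In bins of 10 Mb along chromosome 8 the median was -0.52 at 70 to 80 Mb, -0.56 at 80 to 90 Mb, -0.87 at 90 to 100 Mb, -0.52 at 100 to 110 Mb, -0.72 at 120 to 130 Mb and -0.36 at 140 to 150 Mb, and -0.03 to -0.16 between 40 and 70 Mb. Copy number was not analysed here. The 13 genes above 0 became 8 without *AGO1* knockout replicate 1 or 2 or *AGO2* knockout replicate 2 or 3, and 7 without *AGO1/2* knockout replicate 2.

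*MAL2*, a carrier of apical membrane transport on 8q, was at 206, 206 and 163 CPM in wild-type cells, 60.6, 78.6 and 61.9 in *AGO1*, 219, 178 and 168 in *AGO2* and 2.12, 1.99 and 2.53 in *AGO1/2* knockout cells. It fell with AGO1 loss and far more with joint loss, with an interaction of -4.9 ± 0.23 (adjusted p = 1.14e-07). *ZNF704*, a zinc finger gene, was at 96.3, 38.6 and 71.4 CPM in wild-type cells, 43.0, 40.3 and 43.9 in *AGO1*, 162, 77.7 and 88.9 in *AGO2* and 0.77, 0.86 and 1.03 in *AGO1/2* knockout cells (interaction -6.25 ± 0.5, adjusted p = 1.02e-05). *PAG1*, a membrane adaptor 93.0 kb from *ZNF704*, was at 5.07, 3.0 and 8.35 CPM in wild-type cells, 7.27, 5.56 and 6.94 in *AGO1*, 6.76, 4.84 and 6.59 in *AGO2* and 0.642, 0.722 and 0.66 in *AGO1/2* knockout cells (interaction -3.43, adjusted p = 0.000405). Of these 3 genes the joint knockout samples lay below all others. *MYC*, the growth-promoting transcription factor, was at 307, 229 and 316 CPM in wild-type cells, 304, 319 and 316 in *AGO1*, 318, 363 and 281 in *AGO2* and 136, 158 and 169 in *AGO1/2* knockout cells, lower in the joint knockout without overlap (interaction -1.19 ± 0.2, adjusted p = 0.00179). *GRHL2*, an epithelial transcription factor, and *BOP1*, a ribosome biogenesis protein, had -2.73 and -1.75. *CA8* had -3.48 (adjusted p = 0.0273), a call lost without *AGO1* knockout replicate 1 (-3.32), *AGO2* knockout replicate 3 (-3.33) or *AGO1/2* knockout replicate 2 (-2.89) or 3 (-3.15).

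Elsewhere the median interaction of a stretch was seldom far from 0. Among 252 bins of 10 Mb with at least 20 expressed genes, 11 had a median at or below -0.3 and 3 at or above 0.3, from -0.43 on chromosome 4 (140 to 150 Mb) to 0.85 at the end of chromosome 22 (50 to 60 Mb). In that last bin of 25 genes the medians were -0.5 after AGO1 loss, -0.55 after AGO2 loss and -0.34 after joint loss.

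**Figure D5:**
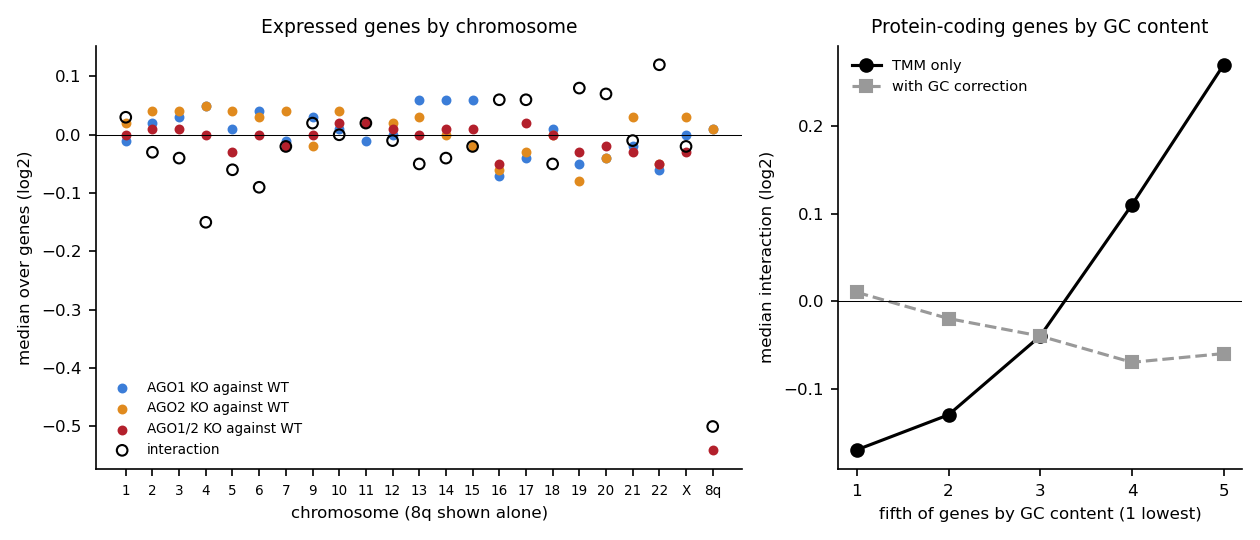
Left, medians over expressed genes (log2) of the interaction (open circles) and of the AGO1, AGO2 and joint effects (filled) by chromosome, with 8q shown alone, where the interaction was -0.5 and the joint effect -0.54. Right, median interaction of 5 groups of protein-coding genes by GC content, from -0.17 to 0.27 before correction (circles) and 0.01 to -0.06 after it (squares).

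Markers of cell types were summed per sample to check the label of the cells. The 10 epithelial markers reached 2080, 2230 and 2180 CPM in wild-type cells, 1450, 1540 and 1580 in *AGO1*, 1840, 1930 and 1740 in *AGO2* and 2790, 2730 and 2200 in *AGO1/2* knockout cells, with *KRT8* the most abundant. The 10 fibroblast markers summed to 29.8, 33.5 and 24.4 CPM in wild-type cells, 14.7, 14.6 and 19.2 in *AGO1*, 13.1, 11.6 and 13.4 in *AGO2* and 16.8, 16 and 13 in *AGO1/2* knockout cells, mostly *COL1A1*, with *FAP*, *POSTN*, *LUM* and *THY1* at 3 or fewer counts per library. Leukocyte markers summed to 2.8, 5.69 and 6.05 CPM in wild-type cells, 3.93, 3.26 and 5.92 in *AGO1*, 3.54, 3.3 and 3.84 in *AGO2* and 11.2, 15.4 and 11.8 in *AGO1/2* knockout cells. They were highest in the joint knockout, *CD68* was the most abundant, and *CD3E*, *MS4A1*, *NKG7* and *FCGR3A* stayed at 3 or fewer counts. *LYZ*, which encodes lysozyme, had an interaction of 3.81 ± 0.77 (adjusted p = 0.00617). Endothelial markers stayed between 5.44 and 9.36 CPM in all 12 samples, with *ESAM* the most abundant. Of these lists 4 of 9 epithelial genes outside 8q were above 0 and 1 below (median 0.02), 2 of 5 fibroblast genes above (1.06), 2 of 3 leukocyte genes above (2.05) and 1 of 6 endothelial genes above (0.25), with 0 below in the last 3. With the GC correction the epithelial list had 2 above and 2 below, and the fibroblast list 1 above. The leukocyte count was 1 without wild-type replicate 3, *AGO1* knockout replicate 1 or 2, *AGO2* knockout replicate 2 or 3, or *AGO1/2* knockout replicate 2. In bulk samples fewer cells of a kind and less RNA per cell cannot be told apart, and the part of these markers in the interaction was not tested.

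In *AGO1/2/3* knockout cells, which also lack AGO3, the rises and falls of joint loss had larger medians. The 433 rises of joint loss had a median change from wild-type cells of 0.82 in the double and 1.07 in the triple knockout, and the 309 falls -0.73 and -0.88 (log2 of CPM + 0.1, all genes 0.0 and -0.01). Both changes use the wild-type samples by which these genes were chosen. Medians of all genes are therefore not their no-change values. Genes whose single rise or fall was not kept in full had medians near wild-type cells, at -0.1 and -0.16. *DCLK1* was at 315, 336 and 375 CPM, *PRKAA2* at 117, 129 and 134 CPM, *TM4SF18* at 119, 177 and 192 CPM and *EFNA5* at 39.9, 49.6 and 47.8 CPM in the 3 samples. All of these were above *AGO1/2* knockout cells. *RHOBTB1* was at 0.0515, 0.0707 and 0.137 CPM, *GRB14* at 0.0, 0.106 and 0.0342 CPM and *COBLL1* at 0.67, 0.778 and 0.513 CPM, close to the low levels of *AGO1/2* knockout cells. *SPARC* reached 53.5, 53.2 and 51.6 CPM, *ANKRD1* 29.8, 50.1 and 79.8 and *CCN2* 24.1, 31.2 and 39.5, above every *AGO1/2* knockout sample. Interferon genes were lower than in *AGO1/2* knockout replicates 1 and 2, with *IFI6* at 10.8, 12.2 and 13.7 CPM, *BST2* at 1.26, 0.743 and 0.753 CPM and list medians of 0.59, 0.53 and 0.47. *TMEM200A* was at 15.5, 13.1 and 11.5 CPM and *EHF* at 36.0, 31.8 and 35.4 CPM, both between *AGO1/2* knockout and wild-type cells. Ribosomal protein genes had medians of -1.08, -1.09 and -0.97, below those of *AGO1/2* knockout cells at -0.39, -0.37 and -0.14, and *MYC* was at 51.3, 59.4 and 66.5 CPM.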

How the data were processed

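The authors deposited estimated counts per gene from Salmon for each RNA sample (57875 genes listed). Submitters' notes name hg38, STAR 2.5.3a and Salmon 0.11.0 (the paper's methods name other versions of both), and file headers of *AGO2* knockout samples name another Salmon mode than the rest, so mode and genotype cannot be told apart in any interaction. Counts were rounded to whole numbers. Genes that passed filterByExpr were fitted with TMM factors and 1 mean per line by edgeR 4.0.16 (glmQLFit, glmQLFTest, R 4.3.3), with Benjamini-Hochberg adjustment over 22426 genes. All adjusted p-values in the report are from this fit unless another setting is named, and they measure spread among 3 samples per line. The paper's methods call them biological replicates, and the labels do not say that these were separate cultures. Symbols and positions came from GENCODE 44 (57167 genes matched). Depth ran from 27709971 to 45271146 counts, and intervals and floors (3 counts per library) cover counting error only.

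Named genes were the 6 called genes with the largest interaction in each of 4 patterns (mean of at least 1 CPM), 4 on 8q, 4 with opposite AGO2 effects, AGO, TNRC6, DICER1 and TARBP2 genes, 22 genes followed by the study, its 2 PCR normalizers and up to 4 per list over 39 lists. Members and lists were chosen with earlier results of these data known. Alternatives covered scaling, filters, DESeq2 1.42.0, limma 3.58.1 voom, all 15 RNA samples, the replicate block, each library left out, and 4 added after seeing the data. Of 105 pairs of files 0 were identical. The 8 eCLIP samples were not used here. Some genes are not reported here. The analysis was tested on simulated data.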

Additional observations from a re-analysis of the deposited data

Results flagged for a closer look

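The difference of *AGO2* knockout from wild-type cells was unlike that of *AGO1/2* from *AGO1* knockout cells for 3539 genes outside 8q, by the test of the interaction. For 307 of them these differences between lines were called in opposite directions. The largest interactions among those 307 were 10.25 for *PRSS33*, 7.66 for *DCLK1*, 7.57 for *PRKAA2* and 7.26 for *TM4SF18* (log2). *PRSS33* rests on 2 counts in *AGO1* knockout and 4 in *AGO2* knockout cells, whereas *DCLK1*, *PRKAA2* and *TM4SF18* had *AGO1/2* knockout samples that did not overlap either single knockout.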

How the results depend on the processing

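Of 146 called named genes, 94 kept call and direction under every setting that gave them a value (22 to 24 of the 24), 52 lost the call under 1 or more and 0 reversed. Of 23 not called, 8 reversed and 10 gained a call under 1 or more settings, *DICER1* under 8, *AGO2* under 7, *RGS16* under 5 and *TSPAN13* under 4. No gene called both here and in another fit had the opposite sign, whereas 4 called genes had another sign on the linear scale. Because the fits share most of their libraries, agreement in sign among called genes was likely from the start. It is no separate support. Counts in the next 2 paragraphs moved by over 1.5 times unless said to lie within it, and the cause was not tested.

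Total-count scaling gave 863 genes below 0, 263 single rises and 1861 single falls not kept in full, 1596 lower after AGO1 loss and 441 higher after AGO2 loss. DESeq2 gave 957 single rises not kept in full and 1961 higher after AGO2 loss, no filter 924 and 1931, and all 15 samples 900 and 1907, with 466 opposite AGO2 effects. Voom with sample weights gave 4548 above and 3938 below 0, 45 above on 8q, 2773 single rises and 3194 single falls not kept in full, 1698 opposite, and 2109 and 2633 (AGO1 loss), 3797 and 4786 (AGO2 loss), 2499 and 2499 (joint loss) and 3810 and 3612 (AGO2 loss without AGO1) higher and lower. The within-line component (42.5% of that variance), added after seeing the data, gave 3306 above and 3068 below 0, 25 above on 8q, 2143 and 2223 not kept in full, 1030 opposite, 1323 and 1826, 3378 and 3409, and 2480 and 2493 in the same order, and 2588 lower for AGO2 loss without AGO1. Leaving out its 2 extreme libraries gave 2610 above and 2067 below 0 (within 1.5 times). GC correction, also chosen after seeing the data, gave 1759 and 1649 (within), and with the replicate block 669 single falls not kept in full, 178 opposite, 529 lower after AGO1 loss and 1246 lower after AGO2 loss. Requiring a 2-fold interaction as well gave 1365 above and 572 below 0, 77 below on 8q, 221 rises and 156 falls with joint loss alone and 282 single rises not kept in full.

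The replicate block alone gave 1846 above and 1137 below 0 (within), 368 single rises not kept in full and 682 higher after AGO2 loss. Only 6 of 18 pairs of equal number correlated over 0.1 and 3 of 12 samples correlated best with their own number. Pairing by number was thus not seen, though samples of equal number can still have been handled together.

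With each library left out, ranges were 1352 to 2494 above and 695 to 1962 below 0, 7 to 17 above and 118 to 159 below on 8q, 256 to 496 and 177 to 332 for joint-only rises and falls, 193 to 873 single rises and 686 to 1439 single falls not kept in full, and 101 to 453 opposite. Higher and lower counts ranged over 255 to 531 and 411 to 1031 (AGO1 loss), 191 to 1411 and 736 to 2414 (AGO2 loss), 930 to 1560 and 948 to 1652 (joint loss), and 1326 to 2641 and 924 to 1897 (AGO2 loss without AGO1).

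The 8 genes that reversed were not called. *TNRC6A* was 0.09 by total counts, 0 by voom, 0 with GC correction with or without the block, and -0.21 to 0.15 with libraries left out. *TARBP2* was 0.1 by total counts and -0.21 to 0.06. *S100A14* was -0.15 by voom, -0.01 without a filter, -0.11 with GC correction, -0.14 with the block added, and -0.54 to 0.42. *DDIT4* was -0.76 by voom and -0.19 to 1.3. *EFNA1* was -0.06 and *TNFSF9* -0.01 with GC correction, and -0.06 and -0.02 with the block added. With libraries left out *ABCC2* ran from -0.16 to 0.39 and *CEMIP* from -0.09 to 0.8.

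An interaction has a larger error than a single contrast, so at this depth and 3 samples per line many small departures can have been missed. Genotype, line and, for *AGO2* knockout cells, quantification mode cannot be told apart.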
